A study of Mus musculus with 504 samples.

Results

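The 49 genes described here are cell cycle genes of 55450 gene identifiers in the counts table, 22 of them of S phase and 27 of mitosis. They were listed by gene symbol from their textbook roles in the cycle, with earlier results of these data known, and all 49 were found in the table. They were measured in mammary tumour cells of mice that carry MMTV-PyMT, a transgene that drives the polyoma middle T antigen in mammary epithelium and so causes tumours. All animals of both lines also carried MMTV-Flpo, whose Flp recombinase turns mammary tumour cells red (mCherry) through the reporter RC::FrePe, and a tamoxifen-activated Cre that turns red cells permanently green (GFP). Beside these 3 alleles, 5 mice carried Cdh2-CreERT2, driven by the promoter of Cdh2 (N-cadherin, used as the mark of a full epithelial-to-mesenchymal transition, EMT), and 5 carried Tnc-CreERT2, driven by the promoter of Tnc (tenascin C, used as the mark of a partial EMT). All mice received tamoxifen, at 2 mg per dose and 2 doses per week, starting at week 9 and ending with sacrifice at week 13 to 14, so no group is without it.

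Cells were sorted by colour and by EpCAM, an adhesion protein of epithelial cells, into wells of 5 cells, called pools here, and each pool made 1 Smart-seq2 library of full-length polyadenylated RNA. The Cdh2-CreERT2 line (Cdh2 line) gave P15 (GFP+, EpCAM negative, 16 pools of 3 animals), P05 (mCherry+, EpCAM negative, 10 pools of 1 animal) and P18 (mCherry high, EpCAM high, 50 pools of 5 animals). The Tnc-CreERT2 line (Tnc line) gave P17 (mCherry+, EpCAM high, 11 pools of 3 animals), the double-positive P22 (EpCAM high, 50 pools of 5), P09 (GFP high, EpCAM medium, 48 of 5), P16 (GFP+, EpCAM medium, 26 of 4), P10 (GFP+, EpCAM low, 25 of 4), P15 (GFP+, EpCAM negative, 12 of 3), P05 (mCherry+, EpCAM negative, 32 of 5) and P18 (mCherry high, EpCAM high, 55 of 5). These gates are those of the series text, while the labels of the libraries give mCherry as high in P17, P18 and P05 alike, and GFP as high in P09, P16, P10 and P15 alike. The gate of P09 is that on its libraries, since the series text gives it under the number P18. P18 is the set against which the other populations of a line were compared.

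A cell that divides first copies its DNA in S phase and then parts the copies in mitosis. Genes of S phase encode the MCM helicase and its loaders, the sliding clamp, makers of DNA building blocks and the cyclins E, and many are switched on by E2F transcription factors as the retinoblastoma proteins let go of them. Genes of mitosis encode cyclins A and B with their kinase Cdk1, the Aurora and Polo kinases, spindle motors, centromere proteins and the checkpoint that holds back chromosome separation. They are kept silent by the DREAM complex in resting cells and are switched on later, by B-Myb and FoxM1. In MMTV-PyMT tumours the oncogene keeps many epithelial cells dividing, and EMT programmes have been linked with slower division in several carcinoma models.

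The 335 libraries that carry a pass in the study's quality label held 313655 to 27849014 counts, and they were summed by animal and population into 43 sums, with the animal as the replicate. A level below is in CPM, the counts of such a sum per 1000000 of its TMM-scaled total, and a pool's CPM is taken over its own total. Markers of epithelium (Epcam, Krt8, Krt18, Cdh1, Cldn7) summed to 1409 to 17230 CPM in P17 and 7432 to 16960 CPM in P18 of the Tnc line. They summed to only 29.4 to 231.1 CPM in Tnc P15, with Cdh1 and Cldn7 at 0 counts, while 8 leukocyte markers summed to 1904 to 5996 CPM there and to 6.54 to 39.1 CPM in Tnc P18. Of the Tnc P15 pools, 12 of 12 had Ptprc (CD45, the shared surface protein of leukocytes) at 10 CPM or more and 0 of 12 had Krt8, so the RNA of that population goes against its label as cells of epithelial tumour origin. Tnc P05 held RNA of fibroblast marker genes (Col1a1, Col1a2, Dcn, Lum, Pdgfra) at 11.2 to 10880 CPM against 0.178 to 7.64 CPM in Tnc P18. Libraries of all Cdh2 animals and of TENA2524 were sequenced on lane 2 and those of the other 4 Tnc animals on lane 1. Some sums rest on few libraries, among them those of P15 of TENA2524 (1 library of 508631 counts), P16 of TENA2483 (1 library) and P18 of Cdh1624 (2 libraries, 879259 counts together).

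Most members were sparse in pools of 5 cells, and S-phase members were found more widely than mitotic ones. Pcna, the sliding clamp of DNA polymerase, reached 10 CPM in 252 of 335 pools (75.2%) and Slbp, which binds histone mRNA, in 236 (70.4%). Of the mitotic members Hmgb2, a chromatin protein that is also expressed outside mitosis, reached it most often, in 155 pools, and Cenpa, the histone of centromeres, came next with 107. Mki67, which coats mitotic chromosomes and is the usual stain for dividing cells, reached 10 CPM in 36 pools (10.7%) and Top2a, which untangles DNA, in 43 (12.8%). The least often seen were the checkpoint kinase Ttk and the transcription factor E2f1 with 8 pools each and Ccne2 with 9. Per kilobase of exon, the mean level over the 335 pools was highest for Pcna (12.6 CPM per kb), followed by the cyclin Ccnb2 (9.43), the separation trigger Cdc20 (8.85), the dUTP-removing enzyme Dut (7.18) and Hmgb2 (7.16), and lowest for Ttk (0.135) and Cenpf (0.1995).

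**Figure D1:**
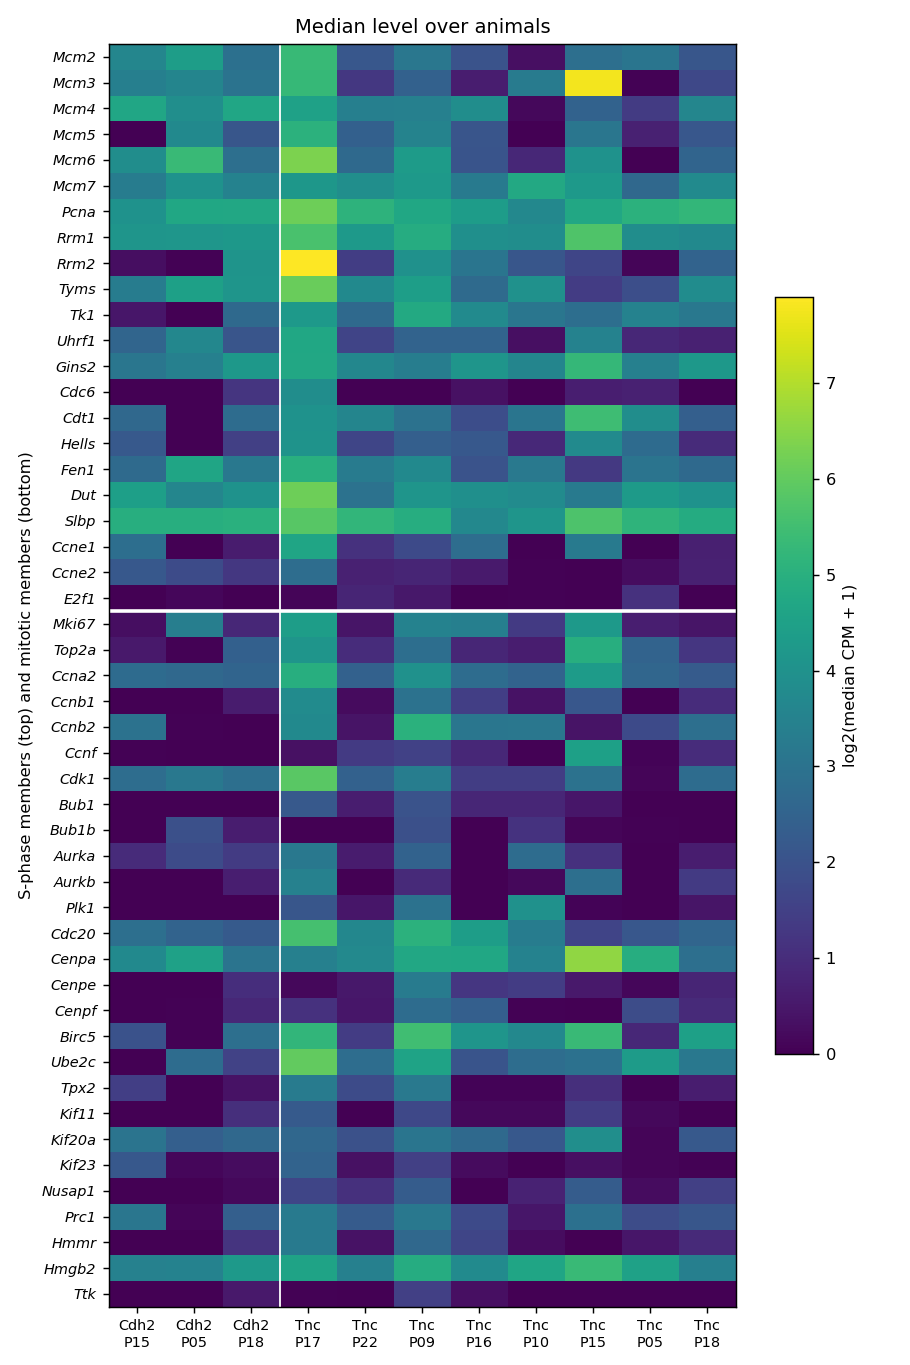
Median CPM over animals of each of the 49 members (rows, S-phase members above mitotic ones) in each line and population (columns, Cdh2 line left of Tnc line, P18 last within each line), as log2 of the median plus 1. Pcna and Slbp are bright in every column, Rrm2 is brightest in Tnc P17 and Mcm3 in Tnc P15.

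Where reads of a member may be shared, its counts are less certain. Exon bases of Mcm7 overlap Cops6, Mir25, Mir93 and Ap4m1, and those of Tk1, Gins2, Ccne2, Ccna2, Cdc20, Ube2c, Kif20a, Nusap1 and Prc1 overlap Afmid, Gse1, Ints8, Exosc9, Elovl1, Tnnc2, Cdc23, Oip5 and Rccd1, each with its own partner in that order. Exons of Fen1, Slbp, Plk1, Top2a and Ccnf also share bases with other genes, and Pcna, Tyms, Ccnb1 and Ccnb2 have named pseudogenes that could take reads. Whether counting used the strand is not given in the sources used here.

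The start regions of 8 members are shown because the groups of genes differ in the letters that bind their known regulators. Each runs from 250 bases before to 50 bases after the start site, 5′ to 3′ on the gene's strand, from RefSeq on GRCm38.p6. Capitals mark CHR elements (TTTGAA or TTCGAA, bound by DREAM, B-Myb and FoxM1 complexes), CCAAT boxes (CCAAT, bound by NF-Y) and E2F sites (TTTCCCGC, TTTGGCGC, TTTCGCGC or TTTGCCGC), searched on both strands, so that a box on the other strand appears as its reverse complement.
Cdk1: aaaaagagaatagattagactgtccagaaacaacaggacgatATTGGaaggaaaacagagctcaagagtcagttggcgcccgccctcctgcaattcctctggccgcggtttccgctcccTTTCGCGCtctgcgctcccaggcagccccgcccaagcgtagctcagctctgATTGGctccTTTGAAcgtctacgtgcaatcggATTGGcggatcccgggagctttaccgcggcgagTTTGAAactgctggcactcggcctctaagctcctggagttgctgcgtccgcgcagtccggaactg
Ccnb1: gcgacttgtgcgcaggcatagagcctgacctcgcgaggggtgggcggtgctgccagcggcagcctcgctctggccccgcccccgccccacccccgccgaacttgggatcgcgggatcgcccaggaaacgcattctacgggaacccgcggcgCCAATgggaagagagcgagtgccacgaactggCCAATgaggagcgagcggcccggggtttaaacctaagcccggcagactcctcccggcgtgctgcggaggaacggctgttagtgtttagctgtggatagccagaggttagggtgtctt
Plk1: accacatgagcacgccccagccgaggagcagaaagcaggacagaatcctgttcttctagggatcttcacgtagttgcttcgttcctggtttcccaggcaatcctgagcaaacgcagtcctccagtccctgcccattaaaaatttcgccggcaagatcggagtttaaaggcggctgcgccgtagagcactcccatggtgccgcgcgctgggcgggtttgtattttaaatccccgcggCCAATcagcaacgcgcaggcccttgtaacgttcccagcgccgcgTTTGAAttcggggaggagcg
Cdc20: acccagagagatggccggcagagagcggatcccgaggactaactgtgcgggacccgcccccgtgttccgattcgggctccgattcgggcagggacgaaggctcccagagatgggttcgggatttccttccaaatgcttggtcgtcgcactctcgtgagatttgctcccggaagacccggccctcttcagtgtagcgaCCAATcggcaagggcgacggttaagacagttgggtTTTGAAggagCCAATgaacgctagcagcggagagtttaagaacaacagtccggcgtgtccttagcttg
Pcna: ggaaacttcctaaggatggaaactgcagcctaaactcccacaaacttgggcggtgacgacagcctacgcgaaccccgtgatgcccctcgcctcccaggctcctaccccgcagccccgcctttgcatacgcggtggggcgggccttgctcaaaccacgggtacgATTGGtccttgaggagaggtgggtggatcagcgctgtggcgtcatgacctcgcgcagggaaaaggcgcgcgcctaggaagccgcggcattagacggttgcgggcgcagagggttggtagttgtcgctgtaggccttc
Rrm2: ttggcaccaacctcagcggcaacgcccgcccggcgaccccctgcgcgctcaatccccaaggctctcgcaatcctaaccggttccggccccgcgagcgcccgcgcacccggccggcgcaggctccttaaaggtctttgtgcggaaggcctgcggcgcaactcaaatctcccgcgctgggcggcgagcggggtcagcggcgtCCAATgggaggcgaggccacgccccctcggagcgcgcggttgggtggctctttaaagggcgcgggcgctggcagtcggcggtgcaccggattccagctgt
Mcm5: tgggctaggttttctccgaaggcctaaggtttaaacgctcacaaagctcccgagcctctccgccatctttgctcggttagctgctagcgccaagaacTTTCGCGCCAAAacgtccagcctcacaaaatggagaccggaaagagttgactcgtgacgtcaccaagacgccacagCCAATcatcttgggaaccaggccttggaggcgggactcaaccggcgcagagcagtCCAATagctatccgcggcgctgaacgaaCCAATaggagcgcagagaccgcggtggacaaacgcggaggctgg
Ccne1: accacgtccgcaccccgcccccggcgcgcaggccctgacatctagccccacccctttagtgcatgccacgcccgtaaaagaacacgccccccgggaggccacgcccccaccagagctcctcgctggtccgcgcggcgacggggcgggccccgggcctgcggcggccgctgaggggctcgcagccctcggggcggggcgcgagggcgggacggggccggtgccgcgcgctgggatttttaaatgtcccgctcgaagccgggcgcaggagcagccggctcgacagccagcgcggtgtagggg

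Cdk1 (chr10:69352863-69353162, minus strand), the kinase that starts mitosis, held CHR letters at 71 and 15 bases before its start, CCAAT boxes at 208, 80 and 48 bases before it and 1 E2F site. Cdc20 (chr4:118437294-118437593, minus strand) held 1 CHR at 18 bases before the start and CCAAT at 53 and 8 before it. Plk1 (chr7:122159185-122159484, plus strand), the Polo kinase, held a CHR 30 bases after the start and a CCAAT box 14 before it. Ccnb1 (chr13:100786437-100786736, minus strand), cyclin B, held CCAAT boxes at 99 and 67 before the start and no CHR in this window. Of the S-phase genes, Mcm5 (chr8:75109259-75109558, plus strand) held 2 E2F matches that overlap each other, at 153 and 149 bases before the start, and 3 CCAAT boxes. Pcna (chr2:132253131-132253430, minus strand) and Rrm2 (chr12:24708004-24708303, plus strand) held 1 CCAAT box each and Ccne1 (chr7:38107441-38107740, minus strand) held none of the letters searched.

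Over all members with a start region in the reference, 42 of 49, CHR letters stood in 20 of 24 regions of mitotic members (83.3%), in 3 of 22 of S-phase members (13.6%) and in 19.2% of all 32851 mouse regions of this length. CCAAT boxes stood in 91.7% of mitotic and 54.5% of S-phase regions against 37.4% of all. E2F letters stood in 4.17% of mitotic and 36.4% of S-phase regions against 2.26% of all. CHR letters were thus more common among mitotic and E2F letters among S-phase members. A match is a run of letters and not a measured site.

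Pools were classed by how many members of a phase they held. A pool was counted as mitotic when at least 14 of the 27 mitotic members reached 10 CPM, and as an S-phase pool when at least 11 of the 22 S-phase members did. By this rule 24 of 335 pools (7.16%) were mitotic, 40 (11.9%) were S-phase, 14 were both and 50 were either, while 72 pools had 0 mitotic members at 10 CPM. At the limits of the rule, 5 pools had exactly 14 mitotic members and 5 had 1 fewer, and 8 pools had exactly 11 S-phase members and 14 had 1 fewer, so the count of S-phase pools moves with the limit. That many members reach 10 CPM in a mitotic pool is fixed by the rule, but which ones do is not. In the 24 mitotic pools, Birc5 (survivin) and Pcna reached 10 CPM in all 24, Ccnb2 and Hmgb2 in 23, and Cdc20, Ube2c, Ccna2, Cenpa and Tyms in 22 each. Kif11 and Ttk did so in 6, Ccnf in 5 and E2f1 and Ccne2 in 2.

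**Figure D2:**
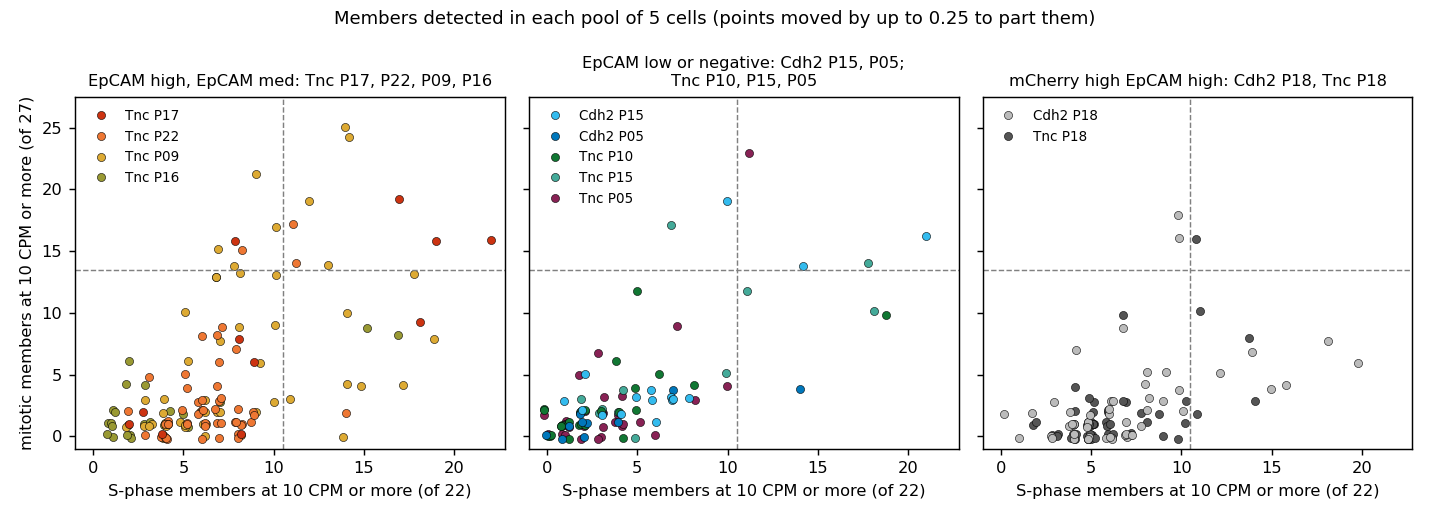
Number of S-phase members at 10 CPM or more (horizontal axis, of 22) against the number of mitotic members at 10 CPM or more (vertical axis, of 27) in each of the 335 pools, in 3 panels by gate, coloured by population, with dashed lines just below 11 and 14. Most pools lie near the lower left corner, 14 lie past both lines, 26 past the S-phase line only and 10 past the mitotic line only.

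In the Tnc line, mitotic pools by this rule made up the highest share in P17 (4 of 11, 36.4%), followed by P09 and P15 (8 of 48 and 2 of 12, 16.7% each), P22 (3 of 50, 6.0%), P05 (1 of 32, 3.13%) and P18 (1 of 55, 1.82%). No mitotic pool was among the 26 of P16 or the 25 of P10, which by counting error over pools alone allows shares of up to 11.5% and 12%, although the pools come from 4 animals each. The gap between P17 and P09 depends on the rule, and their order on the quality label, which 37 further P17 libraries had failed. With the failed libraries the share was 8.33% in P17 and 15.1% in P09. At 20 CPM, or with 18 mitotic members asked for, it was 9.09% in P17 and 8.33% in P09. Mitotic pools came from 3 of 3 animals in P17, 5 of 5 in P09, 2 of 5 in P22, 1 of 3 in P15, 1 of 5 in P05 and 1 of 5 in P18. S-phase pools made up 36.4% in P17, 6.0% in P22, 25% in P09 and in P15, 7.69% in P16, 4.0% in P10, 3.13% in P05 and 9.09% in P18. In P18, 5 pools were thus S-phase pools and 1 was mitotic. In the Cdh2 line 3 of 16 P15 pools (18.8%) were mitotic, against 2 of 50 P18 pools (4.0%), and 2 of 16 (12.5%) were S-phase pools, against 6 of 50 (12%). All 3 mitotic P15 pools of that line came from Cdh1624, which gave 7 of the 16 pools. Both mitotic P18 pools came from Cdh1725. Of the 10 Cdh2 P05 pools, all of 1 animal, 0 were mitotic, which by counting error allows up to 30%, and 1 was an S-phase pool.

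**Figure D3:**
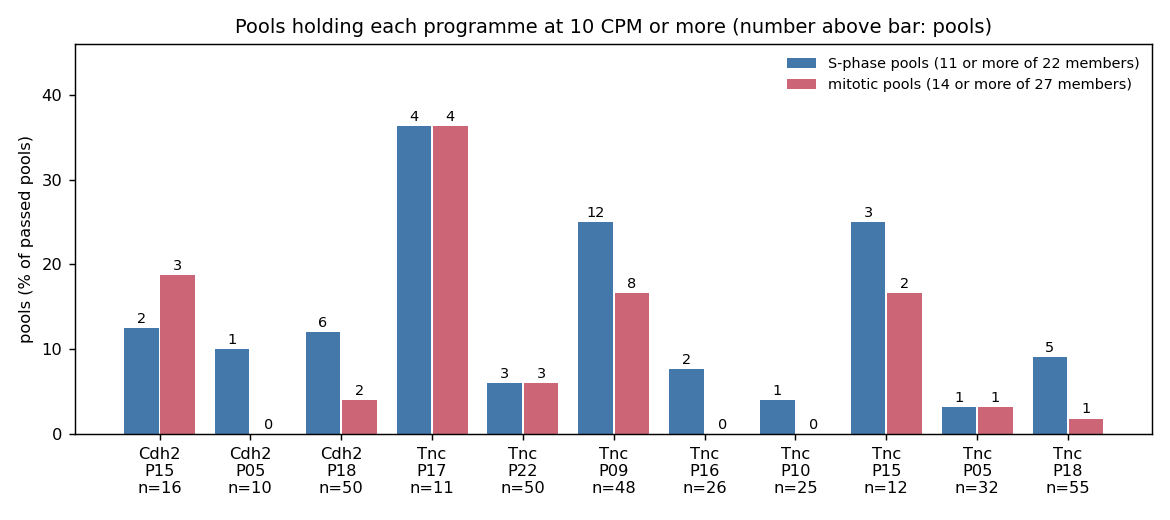
Percent of pools that were S-phase pools (blue) and mitotic pools (red) in each line and population, with the number of such pools above each bar and the number of all pools below. P17 of the Tnc line has the tallest bars by this rule, 36.4% for both, and P16 and P10 have no mitotic bar.

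The pools differed in how many genes were detected and whose RNA they held. The median number of genes detected was 11340 in P17, 12987 in P09, 7327.5 in P15, 7587 in P05 and 14140 in P18 of the Tnc line. The part of detection in the percentages was not tested. Without TENA2483 the P15 share was 0%, and without TENA2462 the P22 share was 2.63%. Of the 24 mitotic pools 18 had Krt8 at 10 CPM, 2 had Ptprc and 2 had Col1a1. Both mitotic pools of Tnc P15 held Ptprc and no Krt8.

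The most complete mitotic profile was that of pool 8 of P09 of TENA2524, with 25 of 27 mitotic members at 10 CPM and a summed mitotic level of 1764 CPM. Pool 9 of P09 of TENA2483 had 24 members and 2352 CPM, and pool 2 of P05 of TENA2560 had 23 members and 4464 CPM. The most complete S-phase profile was pool 7 of P17 of TENA2517, with 22 of 22 S-phase members at 10 CPM, a summed level of 2791 CPM and Rrm2 alone at 907.4 CPM. Rrm2 is the regulated subunit of ribonucleotide reductase, which makes deoxyribonucleotides. The 2 profiles were not always found together: pool 9 of P17 of TENA2560 had 16 mitotic but 8 S-phase members, and pool 3 of P09 of TENA2560 had 19 S-phase but 8 mitotic members.

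Summed by animal, S-phase members stood highest in 2 animals of P17 and 1 of P15 in the Tnc line. The 22 S-phase members summed to 1003, 1728 and 225.2 CPM in P17 of TENA2517, TENA2524 and TENA2560, against 165.1, 227.8, 174.2, 211.9 and 174.9 CPM in P18 of TENA2462, TENA2483, TENA2517, TENA2524 and TENA2560. Of P17, TENA2560 lay within the range of P18 and the other 2 animals far above it. The 27 mitotic members summed to 564.7, 574.7 and 161.6 CPM in P17, against 100.9, 76.6, 44.9, 76.6 and 138.6 CPM in P18, so here all 3 P17 animals lay above all 5 of P18. In a sum of pools, more cells in the cycle and more RNA of these genes per cell cannot be told apart.

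**Figure D4:**
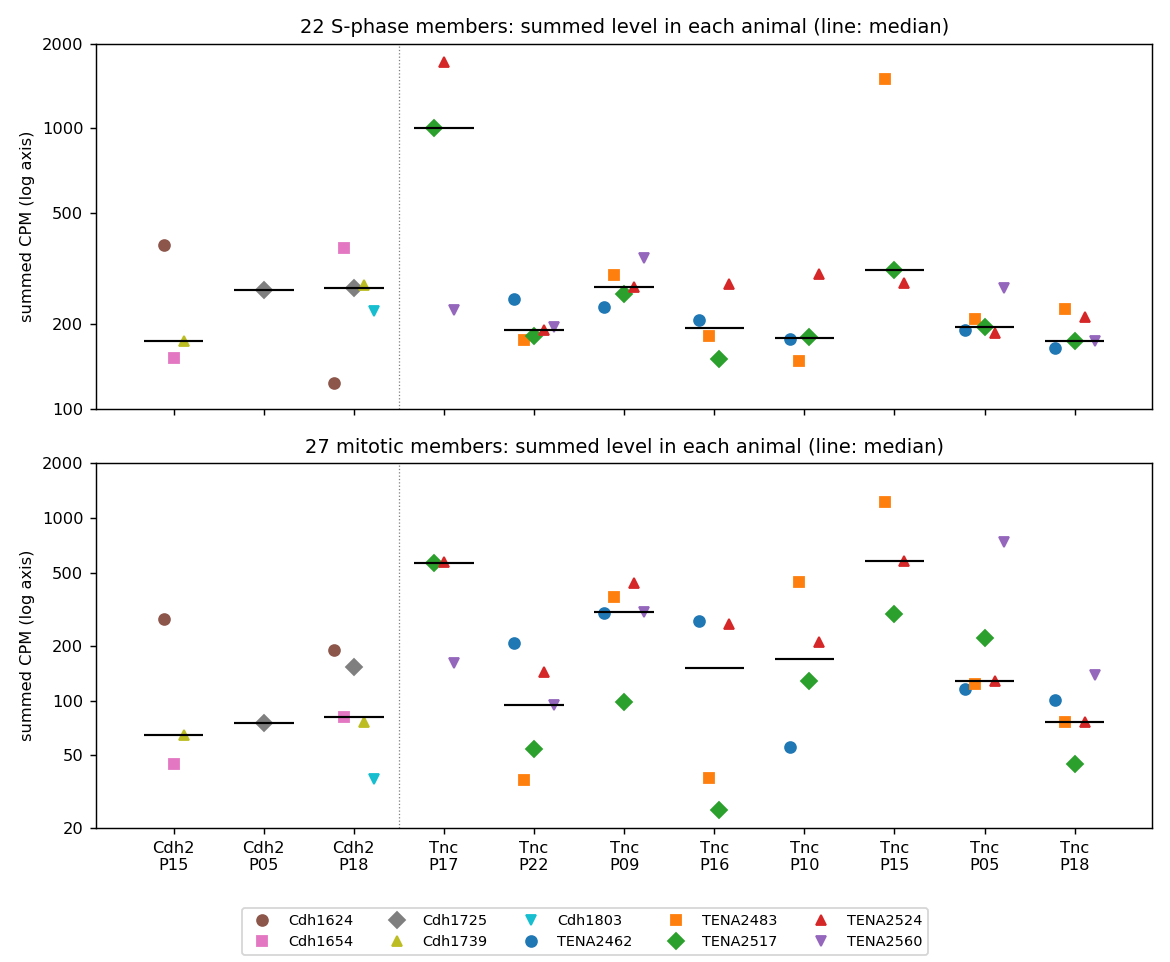
Summed CPM of the 22 S-phase members and of the 27 mitotic members in each animal (points, log axis) by line and population, with the median as a bar. P17 and P09 lie above P18 in the mitotic panel in 3 of 3 and 4 of 5 animals, taking the highest P18 animal (138.6 CPM) as the limit, and P15 spreads from 297.6 to 1231 CPM.

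The mitotic sum divided by the S-phase sum was 0.563, 0.333 and 0.718 in the P17 animals and 1.31, 1.23, 0.383, 1.61 and 0.893 in the P09 animals, against 0.257 to 0.793 in P18. P09 had mitotic sums of 98.5 to 438.3 CPM (303.0 ± 126.9, SD, n = 5, against 87.5 ± 34.8 CPM in P18, n = 5), and 4 of 5 animals lay above all of P18. Its S-phase sums of 230.5 to 344.5 CPM (280.7 ± 43.5 against 190.8 ± 27.4 CPM in P18) also lay above all of P18, by less. In P15 the ratios were 0.819, 0.948 and 2.09, the last in the single library of TENA2524.

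Comparing P17 with P18 in the Tnc line asks how the 2 sorted populations of red, EpCAM-high cells differ. Of the 49 members 47 were fitted higher in P17, against 36.3% of all 33768 genes tested, and none passed edgeR's quasi-likelihood test after adjustment over all genes (0 of 49, against 0% of all genes). At an unadjusted p under 0.05, 12 members were higher and 0 lower, where 1.19% of all genes were higher, and DESeq2 on the same sums called 10 members higher among 1773 genes called: Aurkb, Bub1, Ccne1, Cdc6, Kif11, Kif23, Mki67, Rrm2, Top2a and Ttk. The median fitted log2 fold change was 2.44 for S-phase members and 3.33 for mitotic members, against -0.40 for all genes (-0.25 with RLE factors and -0.16 in DESeq2). In 14 members every P17 animal lay above every P18 animal, against 1.36% of all genes tested. Without TENA2517, 1 member and not 12 was past an unadjusted p of 0.05, and the mitotic median was 1.84, against -0.48 for all genes. In DESeq2, 22 members were at an unadjusted p under 0.05.

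The S-phase members include makers of nucleotides and genes that license origins. Rrm2 had 237.7 and 415.9 CPM in P17 of TENA2517 and TENA2524 and 0.759 CPM in P17 of TENA2560, against 2.56, 7.48, 4.69, 10.3 and 3.75 CPM in P18. The third P17 animal thus lay below all of P18, and the fitted log2 fold change was 5.80 ± 2.30 (SE, adjusted p = 0.905 in edgeR). Tyms, thymidylate synthase, had 68.0, 140.5 and 35.7 CPM in P17 against 5.94 to 17.2 CPM in P18, and all 3 animals lay above P18. Cdc6, which loads the MCM helicase, had 13.7, 16.4 and 6.54 CPM in P17 against 0.0147, 1.17, 0, 0.847 and 0 CPM in P18 (log2 fold change 8.72 ± 3.76, adjusted p = 0.925 in edgeR). Cdt1, its partner in loading, had 15.3, 9.56 and 15.4 CPM in P17 against 2.75 to 7.66 CPM in P18. Neither gene overlapped between the groups.

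The helicase genes differed by animal. Mcm5 had 32.6, 166.3 and 16.2 CPM in P17 against 0, 6.06, 3.43, 7.21 and 3.22 CPM in P18, and all P17 animals lay above. Mcm6 had 80.8, 136.6 and 9.65 CPM in P17 against 1.99 to 11.5 CPM in P18, and Mcm2 had 39.3, 46.1 and 0 CPM in P17 against 1.81 to 6.75 CPM in P18, so for these TENA2560 of P17 lay within or below P18. Mcm7 had 44.6, 17.1 and 1.52 CPM in P17 against 8.56 to 14.1 CPM in P18 and had the second smallest fitted fold of the S-phase members, 1.05 ± 1.22. Pcna was high in both groups, with 69.9, 125.8 and 39.3 CPM in P17 against 35.0 to 37.9 CPM in P18, and its fitted log2 fold change was 1.05 ± 1.02. Slbp (56.9, 67.6 and 38.1 CPM in P17 against 20.1 to 45.0 CPM in P18) and Gins2, of the complex that joins the helicase to the polymerases (20.4, 38.5 and 25.4 CPM in P17 against 11.3 to 24.0 CPM in P18), overlapped between the groups. Gins2 had the smallest fitted log2 fold change of the phase, 0.75 ± 1.198. In P18, Pcna, Slbp, Gins2 and Mcm7 each had at least 8.56 CPM in every animal.

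Cyclin E and E2F genes varied by animal. Ccne1, which drives entry into S phase with Cdk2, had 24.1, 43.1 and 0 CPM in P17 against 0.0442, 4.23, 0, 0.617 and 0.956 CPM in P18 (log2 fold change 8.18 ± 3.42, adjusted p = 0.917 in edgeR). Ccne2 had 6.05, 6.28 and 0.422 CPM in P17 against 0.511 to 1.31 CPM in P18, and E2f1 had 5.56, 0.0714 and 0 CPM in P17 against 0 to 0.917 CPM in P18. Tk1, thymidine kinase, had 17.8, 55.5 and 2.91 CPM in P17 against 0.992 to 11.9 CPM in P18. In each of these genes TENA2560 of P17 lay within or below P18, as did its S-phase sum.

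Of the mitotic members, Mki67 was even over the P17 animals. It had 23.1, 20.1 and 20.0 CPM in P17 (21.1 ± 1.77, SD, n = 3), against 0.192, 0.0625, 0.497, 3.19 and 0.367 CPM in P18 (0.862 ± 1.31, n = 5). The groups did not overlap, and the fitted log2 fold change was 5.58 ± 2.13 (adjusted p = 0.905 in edgeR). In single pools, however, 5 of 11 P17 pools had Mki67 at 10 CPM, and it was found in no other P17 pool. Top2a had 16.5, 49.6 and 3.20 CPM in P17 against 0.825, 2.63, 0.0178, 1.35 and 1.56 CPM in P18 (log2 fold change 5.00 ± 1.96, adjusted p = 0.905 in edgeR), and again did not overlap. Cdk1 had 58.8, 57.2 and 18.5 CPM in P17 against 2.23, 6.88, 0, 5.88 and 11.7 CPM in P18. Cdc20, the activator of the anaphase-promoting complex, had 71.6, 47.0 and 12.7 CPM in P17 against 5.02, 0.958, 1.03, 10.0 and 10.4 CPM in P18. These were above P18 in all 3 animals.

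Of the other kinases and of the cyclins, Aurkb, the Aurora kinase of the centromere, had 25.5, 3.85 and 10.2 CPM in P17 against 0 to 3.29 CPM in P18 and did not overlap. Plk1 (3.34, 10.49 and 0 CPM in P17 against 0 to 0.723 CPM in P18) and Ccnb1 (13.9, 13.1 and 0 CPM in P17 against 0.124 to 1.88 CPM in P18) were at 0 in TENA2560 of P17. Birc5 had 35.5, 114.9 and 21.8 CPM in P17 against 3.18 to 42.6 CPM in P18, and overlapped. Ube2c, the ubiquitin-conjugating enzyme of the anaphase-promoting complex, had 68.2, 62.6 and 15.7 CPM in P17 against 1.55 to 16.5 CPM in P18. Hmgb2 had 61.2, 22.7 and 8.05 CPM in P17 against 8.45 to 12.9 CPM in P18. Of these, Birc5, Plk1, Ccnb1, Ube2c and Hmgb2 overlapped between the groups.

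Beside Aurkb, motor and checkpoint genes had the largest fitted folds of mitotic members. Kif23, a motor of the spindle midzone, had 4.66, 0.642 and 5.48 CPM in P17 against 0.0884, 0, 0.0888, 0.0242 and 0.0222 CPM in P18, with a log2 fold change of 6.44 ± 2.26 (adjusted p = 0.905 in edgeR). Kif11, the motor that parts the spindle poles, had 1.46, 3.71 and 6.07 CPM in P17 against 0 to 0.575 CPM in P18 (6.49 ± 2.79). Neither overlapped between the groups. Bub1, a checkpoint kinase, had 3.87, 0 and 3.58 CPM in P17 against 0 to 0.354 CPM in P18 (8.90 ± 3.59), and its sign turned to -0.30 without TENA2517. Ttk had 16 counts in P17 and 0 counts in the 5 animals of P18, so its pooled level was at least 5.06 log2 units higher, taking 3 counts over the P18 group. The 2 smallest folds of mitotic members were those of the centromere protein Cenpf (1.52, 0.0714 and 1.18 CPM in P17 against 0.622 to 1.03 CPM in P18, -0.50 ± 2.28) and of cyclin F, Ccnf (2.02, 0.286 and 0 CPM in P17 against 0 to 1.58 CPM in P18, -0.09 ± 2.62). The members not named were fitted 0.92 to 5.69 log2 units higher in P17, among them Nusap1 and Uhrf1 at these limits.

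**Figure D5:**
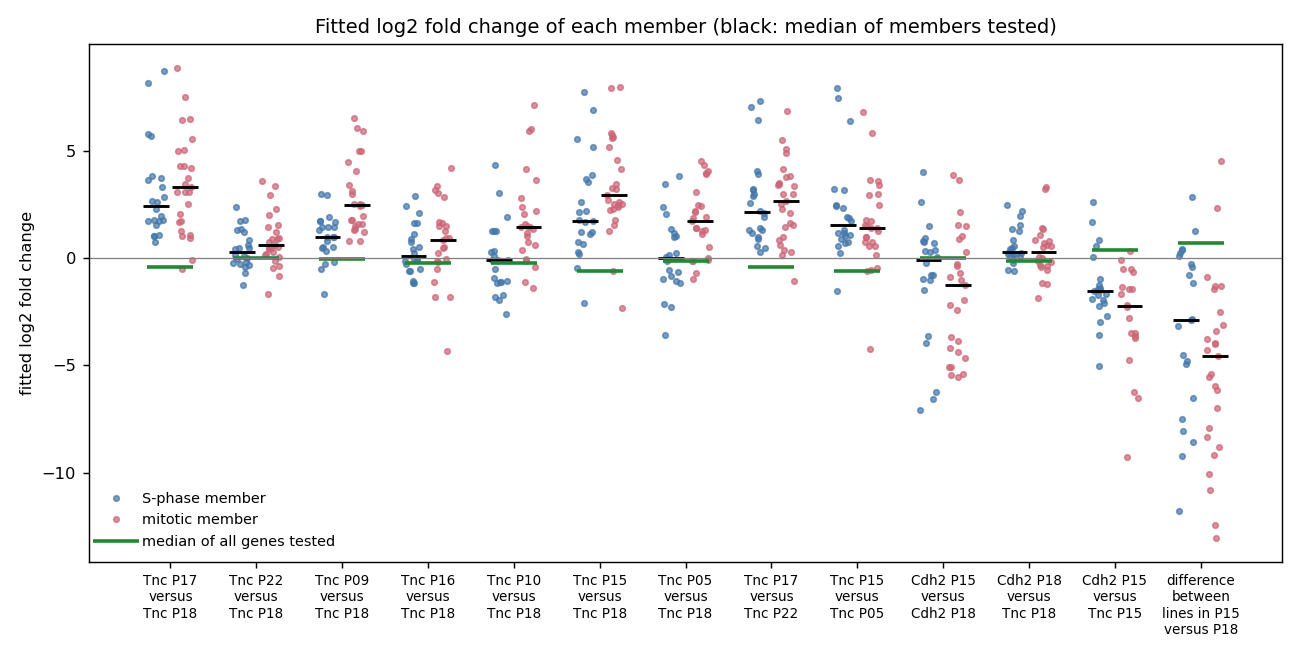
Fitted log2 fold change of each member (points; S-phase and mitotic members apart) in each comparison of a population with P18 and in the other comparisons, with the median of the members as a black bar and the median of all genes tested as a green bar; members given as a bound or a pooled ratio are not drawn. In all 7 comparisons with P18 in the Tnc line the black bars lie above the green ones in both phases, and in P15 of the Cdh2 line the mitotic bar lies below.

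P17 was also set against the double-positive P22. Of the 49 members 48 were fitted higher in P17 and 0 passed edgeR's test after adjustment (0% of all genes). At an unadjusted p under 0.05, 4 were higher (1.15% of all genes). DESeq2 called 4 of 49, Ccne1, Cdc6, Mki67 and Rrm2, against 2892 of all 33768 genes. The medians were 2.16 for S-phase and 2.66 for mitotic members, against -0.43 for all genes. In 8 members (Mcm5, Pcna, Tyms, Cdc6, Dut, Mki67, Cdk1 and Tpx2) all P17 animals lay above all P22 animals, against 1.22% of all genes. Mki67 had 23.1, 20.1 and 20.0 CPM in P17 against 4.76, 0, 0.354, 2.71 and 0.035 CPM in P22, and Rrm2 237.7, 415.9 and 0.759 CPM in P17 against 0.0759 to 10.2 CPM in P22. This comparison and that with P18 share the P17 sums. At an unadjusted p under 0.05, 1 member was higher without TENA2517, when the mitotic median was 0.86, and 2 without TENA2483, but 9 with equal weight of libraries, 12 in DESeq2 and 14 with only these 2 groups fitted.

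P09, the GFP-high cells of medium EpCAM, was set against P18 to see how cells that had switched colour differ from red epithelial cells. All 27 mitotic members and 18 of 22 S-phase members were fitted higher in P09, against 47.1% of all genes. None passed edgeR's test after adjustment (0 of 49, and 0% of all genes), and 7 mitotic members were higher at an unadjusted p under 0.05 (0.977% of all genes). DESeq2 called 3 of 49, Kif11, Kif23 and Ttk, against 1252 of all 33768 genes. The medians were 0.99 for S-phase and 2.49 for mitotic members, against -0.03 for all genes. In 7 members, Rrm1, Tk1, Uhrf1, Fen1, Kif11, Kif20a and Hmgb2, every P09 animal lay above every P18 animal, against 0.871% of all genes. Leaving out any 1 of the 5 animals left 3 or 4 members higher at an unadjusted p under 0.05, while DESeq2 had 12, and a fit of only these 2 groups had 23 higher and 1 lower.

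In P09 the mitotic sum was lowest in TENA2517 and highest in TENA2524. Mki67 had 10.3, 3.75, 1.05, 28.6 and 17.1 CPM in P09 of TENA2462, TENA2483, TENA2517, TENA2524 and TENA2560, against 0.192, 0.0625, 0.497, 3.19 and 0.367 CPM in P18 of the same animals, and was higher in 5 of 5. Its fitted log2 fold change was 4.06 ± 1.94 (adjusted p = 1 in edgeR). Plk1 had 6.85, 6.81, 0.283, 15.0 and 7.69 CPM in P09 against 0 to 0.723 CPM in P18, and Kif11 1.34 to 3.14 CPM in P09 against 0 to 0.575 CPM in P18. Both were higher in 5 of 5 animals. Cdc20 had 4.47 to 52.9 CPM in P09 against 0.958 to 10.4 CPM in P18, and Ccnb1 had 1.39 to 8.75 CPM in P09 against 0.124 to 1.88 CPM in P18, and both overlapped. Hmgb2 had 13.48 to 41.0 CPM in P09 against 8.45 to 12.9 CPM in P18. Ttk had 544 counts in P09 and 0 in P18, at least 7.84 log2 units more.

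S-phase members of P09 were mixed. Tk1 had 26.8, 32.7, 26.6, 12.7 and 16.4 CPM in P09 against 0.992 to 11.9 CPM in P18 and did not overlap. Pcna had 22.7 to 31.2 CPM in P09 against 35.0 to 37.9 CPM in P18. Slbp and Cdc6 were also fitted lower, Cdc6 with 0 CPM in 4 of 5 P09 animals and 2.59 CPM in TENA2524. Rrm2 had 14.9, 12.8, 0.384, 15.2 and 25.4 CPM in P09, against 2.56 to 10.3 CPM in P18. Rrm2 was thus above all of P18 in 4 of 5 P09 animals, while Pcna was lower in P09 in all 5.

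P15 of the Tnc line, GFP+ cells without EpCAM, was compared with P18 as the far end of the traced cells. Of the members 45 of 49 were fitted higher, against 39.6% of all genes, 0 passed edgeR's test after adjustment, where 0.729% of all genes did, 10 were higher at an unadjusted p under 0.05 (5.04% of all genes), and DESeq2 called 12 among 4880 genes called: Ccna2, Ccne1, Ccnf, Hmgb2, Kif11, Kif20a, Kif23, Mcm3, Mki67, Top2a, Ttk and Uhrf1. The medians were 1.76 for S-phase and 2.94 for mitotic members, against -0.61 for all genes (-0.18 with RLE factors and 0.34 in DESeq2). Without TENA2483 the S-phase median was 0.77, against -0.99 for all genes. In Mcm3 and Ccnf every P15 animal lay above every P18 animal (0.764% of all genes) and in Tyms and Hmmr every one lay below (17.2% of all genes). These pools held leukocyte RNA throughout, as given above, so that the comparison is also one of pools with and without it, and its part in the member folds was not tested.

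Both phase sums of P15 were highest in TENA2483. Mki67 had 28.9, 18.2 and 0 CPM in P15 of TENA2483, TENA2517 and TENA2524, against 0.0625 to 3.19 CPM in P18, and Top2a 198.2, 29.8 and 0 CPM in P15 against 0.0178 to 2.63 CPM in P18 (log2 fold change 5.67 ± 2.07, adjusted p = 0.189 in edgeR). Hmgb2 had 244.8, 40.1 and 0 CPM in P15 against 8.45 to 12.9 CPM in P18. The single library of TENA2524 was at 0 for 44 of the 49 members, so its values are those of a few genes. Mcm3, of the helicase, had 216.0, 10.9 and 229.5 CPM in P15 against 0 to 3.45 CPM in P18 (7.77 ± 2.54, adjusted p = 0.139 in edgeR), and Ccnf 21.6, 1.95 and 539.3 CPM in P15 against 0 to 1.58 CPM in P18. Rrm2 had 109.8, 2.15 and 0 CPM in P15, and Pcna 136.2, 25.7 and 0 CPM in P15 against 35.0 to 37.9 CPM in P18. Without TENA2517 and TENA2483 in turn, 4 and 5 members were higher at an unadjusted p under 0.05, against 2 with only these 2 groups fitted, 17 with sums of at least 3 libraries and 22 in DESeq2. In TENA2483, pool 2 gave 97.2% of the P15 counts of Kif23 and 97.4% of those of Cdc20.

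P05, red cells without EpCAM, was compared with P18 in 5 animals. The medians were 0.02 for S-phase and 1.76 for mitotic members, against -0.15 for all genes, and the mitotic one was 0.37 without TENA2560 (-0.21 for all genes), when 1 member and not 3 was higher and 3 and not 1 were lower at an unadjusted p under 0.05. Without TENA2517 the mitotic median was 0.65, and without the pools that had Ptprc 0 members were higher. Of the 49 members 0 passed edgeR's test after adjustment (0.545% of all genes did). At an unadjusted p under 0.05, 3 were higher and 1 lower (6.98% and 6.28% of all genes). DESeq2 called 6 of 49, against 4564 of all 33768 genes: Aurka, which was lower in pooled counts, and Cenpa, Kif11, Kif23, Top2a and Ttk. Top2a had 4.78, 3.46, 16.9, 3.70 and 21.1 CPM in P05 against 0.825, 2.63, 0.0178, 1.35 and 1.56 CPM in P18, and was the 1 member above P18 in every animal, against 1.19% of all genes. Aurka, the Aurora kinase of spindle poles, had 1 count in all of P05 and 210 in P18, a log2 ratio of pooled counts of -6.15 (95% interval -11.46 to -3.65, which covers counting error only and not the spread between animals). Mki67 had 0.588, 10.1, 1.71, 0.0649 and 0 CPM in P05 against 0.0625 to 3.19 CPM in P18, and overlapped. TENA2560 of P05 had a mitotic sum of 741.3 CPM, against 115.0 to 220.8 CPM in the other 4 P05 animals, but 0 CPM of Mki67. Leukocyte markers summed to 30.3 to 3716 CPM in P05 against 6.54 to 39.1 CPM in P18, and fibroblast markers stood as given above. Their part in the folds was not tested.

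Within the EpCAM-negative cells of the Tnc line, P15 was set against P05. Of the members 44 of 49 were fitted higher in P15 (38.8% of all genes), and 0 passed edgeR's test after adjustment (0.136% of all genes did). At an unadjusted p under 0.05, 5 were higher (3.16% of all genes). DESeq2 called 6 of 49, Aurka, Ccne1, Ccnf, Kif20a, Mcm3 and Mcm6, against 5651 of all 33768 genes. The medians were 1.54 for S-phase and 1.42 for mitotic members, against -0.58 for all genes. Without TENA2483, 29 of 49 were fitted higher and the medians were 0.80 and 0.89 against -1.06, and without TENA2560 the mitotic median was 2.60. Ccnf (21.6, 1.95 and 539.3 CPM in P15 against 0 to 1.53 CPM in P05) was the 1 member above in every animal, against 0.29% of all genes. Mcm6 had 176.5, 15.2 and 0 CPM in P15 against 0, 0, 0, 0 and 13.7 CPM in P05. Members higher at an unadjusted p under 0.05 numbered 10 without TENA2560, 2 without TENA2483 and 3 without TENA2462, TENA2517 or TENA2524. Without TENA2517, 1 member was lower at that limit.

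P22, P16 and P10 were also set against P18. In P22 the medians were 0.30 for S-phase and 0.63 for mitotic members against -0.01 for all genes. There, 0 members passed edgeR's test (0% of all genes) and 1, Ttk, was higher at an unadjusted p under 0.05 (1.09% of all genes). DESeq2 also called 1, Ttk, against 836 of all 33768 genes. Ttk had 2.21 CPM in P22 of TENA2462, 0.0553 CPM in TENA2524 and 0 CPM in the other P22 animals. In P18 it had 0 CPM in every animal, so this result rests mostly on TENA2462. Without TENA2462 the medians of P22 were -0.15 for S-phase and -0.038 for mitotic members. Mki67 had 4.76, 0, 0.354, 2.71 and 0.035 CPM in P22 against 0.192, 0.0625, 0.497, 3.19 and 0.367 CPM in P18. In P16 the medians were 0.10 and 0.84 against -0.21 for all genes, and 0 members passed edgeR's test (0.00296% of all genes did). At an unadjusted p under 0.05, 1 was higher and 1 lower (3.22% and 2.9% of all genes). DESeq2 called 2 of 49, Aurkb and Ttk, against 1189 of all 33768 genes. Aurkb had 0 counts in P16 and 604 in P18, at least 6.03 log2 units lower. P16 split by animal, with mitotic sums of 274.5 and 264.4 CPM in TENA2462 and TENA2524 and 37.8 and 25.1 CPM in TENA2483 and TENA2517, and its mitotic median was -0.16 without TENA2462 and -0.15 without TENA2524. The S-phase median of P16 was -0.29 without TENA2462 and -0.27 without TENA2524, where the median of all genes was -0.34 and -0.33, below both phases. Without TENA2462 or TENA2517, 2 members were higher at an unadjusted p under 0.05.

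In P10 the medians were -0.08 for S-phase and 1.47 for mitotic members against -0.22 for all genes. There, 0 members passed edgeR's test (0.00296% of all genes did) and 3 were higher at an unadjusted p under 0.05 (4.59% of all genes). DESeq2 called 2 of 49, Plk1 and Ttk, against 1680 of all 33768 genes. Plk1 had 0.0623, 67.9, 30.1 and 0 CPM in P10 of TENA2462, TENA2483, TENA2517 and TENA2524 against 0 to 0.723 CPM in P18. The mitotic sums of P10 were 55.9, 448.7, 128.8 and 210.3 CPM. That of TENA2483 came with 0 to 33.0 CPM in its S-phase members. Leukocyte markers summed to 4.35 to 4166 CPM in P10, and without the pools that had Ptprc the mitotic median was -0.011, against -0.48 for all genes. Without TENA2524, the S-phase median was -1.31, against -0.48 for all genes, and 1 member and not 3 was higher at an unadjusted p under 0.05. The mitotic median was 0.72 without TENA2483, and the S-phase median was 0.062 without TENA2560.

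In the Cdh2 line P15 was set against P18 to ask how cells in which the Cdh2 promoter had been active differ from red epithelial ones. Of the members 19 of 49 were fitted higher in P15 (52.7% of all genes), and 0 passed edgeR's test after adjustment (0% of all genes). In edgeR 0 were higher and 0 lower at an unadjusted p under 0.05 (1.3% and 2.3% of all genes). In DESeq2 1 was higher and 10 were lower at that limit. DESeq2 called 4 of 49, Mcm5, Plk1, Rrm2 and Ube2c, against 1893 of all 33768 genes. The medians were -0.08 for S-phase and -1.23 for mitotic members, against 0 for all genes, and the mitotic median was -3.79 without Cdh1624 and -0.0085 without Cdh1739. The S-phase median was -2.18 without Cdh1624, 1.25 without Cdh1654 and 2.14 without Cdh1739. Without Cdh1624 the median of all genes was -0.34. The count fitted higher was 7 of 49 without Cdh1624, 29 without Cdh1739 and 2 with failed libraries, when the median of all genes was -1.10. Without Cdh1624, 3 members were lower at an unadjusted p under 0.05. The mitotic sum was 280.6, 45.1 and 65.1 CPM in P15 of Cdh1624, Cdh1654 and Cdh1739, against 188.5, 80.9, 152.6, 76.2 and 37.2 CPM in P18 of Cdh1624, Cdh1654, Cdh1725, Cdh1739 and Cdh1803. Mki67 had 15.3, 0.221 and 0 CPM in P15 against 0, 0.104, 3.45, 0.832 and 2.60 CPM in P18. Rrm2 had 42.8, 0.221 and 0 CPM in P15 against 0, 38.3, 15.9, 29.6 and 0.0727 CPM in P18, and Pcna 19.4, 14.8 and 15.2 CPM in P15 against 0 to 39.8 CPM in P18. Cdh1624, which held all 3 mitotic pools, was thus the high animal of P15 for Mki67 and Rrm2. Here 8 leukocyte markers summed to 2.21 to 21.6 CPM in P15, with Ptprc at 0 counts, and epithelial markers to 27.6 to 180.3 CPM.

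Between the lines, P18 of the Cdh2 line was set against P18 of the Tnc line. Of 43 members tested 30 were fitted higher in the Cdh2 line (40.3% of all 17878 genes tested), and 0 passed edgeR's test after adjustment (0% of all genes). At an unadjusted p under 0.05, 2 were higher (1.94% of all genes), Cdt1 and Top2a. DESeq2 called 0 of 43, against 3 of all 17878 genes. Without Cdh1624, whose P18 sum has 2 libraries, 0 members were higher at an unadjusted p under 0.05, and without Cdh1803 there were 5. Without TENA2483, TENA2517, TENA2524 or TENA2560 there was 1. Top2a had 41.8 CPM in Cdh1624 and 0.930 to 6.65 CPM in the other Cdh2 animals, against 0.0178 to 2.63 CPM in the Tnc line, and Cdt1 had 104.8 CPM in Cdh1624 and 1.12 to 8.98 CPM in the others, against 2.75 to 7.66 CPM in the Tnc line. Rrm2 had 0, 38.3, 15.9, 29.6 and 0.0727 CPM in Cdh2 P18 against 2.56 to 10.3 CPM in Tnc P18. Line and lane go together for all animals but TENA2524, so they cannot be told apart here. On lane 2 alone, where TENA2524 is the only Tnc animal, 27 of 49 members were fitted higher, with a median of 0.042 for all genes.

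In P15 of the Cdh2 line against P15 of the Tnc line, of 41 members tested 35 were fitted lower and 6 higher (59.4% of all genes were higher), with medians of -1.55 for S-phase and -2.21 for mitotic members against 0.38 for all 14028 genes tested. None passed edgeR's test after adjustment (0 of 41, and 0% of all genes), and 2 were lower at an unadjusted p under 0.05 (1.01% of all genes), Ccnf and Nusap1. DESeq2 called 0 of 41, against 1331 of all 14028 genes. Ccnf (0.994, 0 and 0.0241 CPM in Cdh2 P15 against 21.6, 1.95 and 539.3 CPM in Tnc P15) was the 1 member below in every animal, against 1.88% of all genes. Without Cdh1624, 8 members were lower at an unadjusted p under 0.05, without TENA2524 there were 4, and without any other single animal there was 1. Without TENA2483, 20 of 42 members were fitted higher, and the S-phase median was 0.48 and the mitotic one -0.76, against 1.03 for all genes. Line and lane go together for all but TENA2524, and the Tnc P15 pools held leukocyte RNA while the Cdh2 P15 pools did not, so line, lane and that RNA cannot be told apart here. The difference itself, P15 against P18 in the Cdh2 line minus the same in the Tnc line, was also tested. In edgeR 0 of 49 members were called (0.00888% of all genes were). At an unadjusted p under 0.05, 5 were lower (1.78% of all genes), with 12 without Cdh1624 and 2 without Cdh1654 or TENA2483. DESeq2 called 14 of 49, against 3338 of all 33768 genes. The edgeR medians of this difference were -2.87 for S-phase and -4.57 for mitotic members against 0.69 for all genes. Without Cdh1739 they were -0.29 and -2.29 against 1.24. Top2a stood at -10.05 ± 3.36 (adjusted p = 0.424 in edgeR).

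Other genes of the cycle were counted in lists by role. In P17 against P18, 44 of 47 further mitotic genes (among them Kif2c, Ndc80, Aspm and Foxm1) and 34 of 42 further replication genes (among them Orc1, Cdc45 and Lig1) were fitted higher, against 36.3% of all genes, with medians of 2.79 and 1.58 against -0.40 for all genes. Of these, 8 and 2 were higher at an unadjusted p under 0.05, as were 1.19% of all genes, and 0 passed edgeR's adjusted test. Of 31 genes of G1 and its checkpoints 12 were fitted higher, near the share of all genes, with a median of -0.48. At an unadjusted p under 0.05, 3 of the 31 were higher and 0 lower, where 1.19% of all genes were higher. Of 15 fork repair genes 8 were fitted higher, and 1 was higher at that limit. The further mitotic genes were fitted higher in 45 of 47 cases in P09 (47.1% of all genes, median 1.84 against -0.03), in 40 of 47 in Tnc P15 (39.6% of all genes, 3.14 against -0.61) and in 14 of 47 in Cdh2 P15 (52.7% of all genes, -1.94 against 0). The G1 list had a median of 0.17 in P09 and 0.24 in P15 of the Tnc line and 0.94 in P15 of the Cdh2 line. The further mitotic genes were thus on the side of the mitotic members in P17, P09, Tnc P15 and Cdh2 P15. In P10 and P05, 23 and 29 of 47 were fitted higher (43.3% and 44.7% of all genes). Their medians there were -0.04 and 0.31, against 1.47 and 1.76 for the mitotic members and -0.22 and -0.15 for all genes. In P22 and P16 their medians were 0.67 and 0.47, against 0.63 and 0.84 for the mitotic members. None of the lists had a gene past edgeR's adjusted test.

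Of the single genes of control, Cdkn1a, which encodes the CDK inhibitor p21, had 15.8 to 231.8 CPM in P17, 33.6 to 245.5 CPM in P16, 11.0 to 219.8 CPM in P10 and 0 to 184.5 CPM in Tnc P15, against 324.9 to 711.5 CPM in Tnc P18. These 4 did not overlap P18, while P22, P09 and P05 did, and P16 and P10 held no mitotic pool among the passed libraries. Of all genes, 17.2% lay below P18 in every animal of P15, a share that is not given here for P17, P16 and P10. Within animals, Cdkn1a was higher than in P18 in 0 of 5 animals for P22 and for P09, and in 2 of 5 for P05. The fitted log2 fold change was -1.59 ± 1.14 in P17, -2.11 ± 1.06 in P16, -1.81 ± 1.05 in P10 and -2.57 ± 1.21 in P15 (adjusted p = 1, 0.818, 0.666 and 0.306 in edgeR). In the Cdh2 line it had 266.7 to 707.2 CPM in P15, against 0 to 548.5 CPM in P18, and the difference between the lines was 5.44 ± 1.93 (adjusted p = 0.47 in edgeR). Ccnd1, cyclin D1, which acts before S phase, had 24.9 to 130.4 CPM in P17 against 59.3 to 108.2 CPM in Tnc P18, while it had 258.6 to 877.2 CPM in Cdh2 P15 against 9.32 to 41.7 CPM in Tnc P15 (4.24 ± 1.08, adjusted p = 0.119 in edgeR). Foxm1 had 0 to 21.6 CPM in P17 against 0 to 0.478 CPM in P18, and Mybl2, the B-Myb gene, 0.127 to 4.80 CPM in P17 against 0 to 0.375 CPM in P18. Myc had 0.286 to 54.0 CPM in P17 against 102.1 to 159.5 CPM in P18 (fitted log2 fold change -2.005 ± 1.197). The inhibitor Cdkn1b (0 to 13.7 CPM in P17 against 5.83 to 11.1 CPM in P18) and the growth arrest gene Btg2 (190.5 to 289.8 CPM in P17 against 164.0 to 624.9 CPM in P18) overlapped.

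Of the 7742 genes with a mean of 10 CPM or more over the 335 pools, 20 were members. Those whose CPM ranked most like Mki67 were Birc5 (Spearman 0.548), Ube2c (0.519) and Ccnb2 (0.482), and Slbp (-0.0491) and Mcm4 (0.00578) ranked least like it. The 5 genes most alike outside the list were Racgap1 (0.368), which works with Kif23 in the spindle midzone, the predicted genes Gm26623 (0.327), Gm6722 (0.319) and Gm8203 (0.317), and the histone gene H2afz (0.313). These are descriptions over pools that share animals, and Mki67 was under 10 CPM in most of them.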

How the data were processed

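The deposited table holds whole-number read counts per gene identifier and library, with no normalization. Per the submitters' processing notes the authors used STAR, SAMtools and featureCounts of Subread with the build mm10, with tool versions and the strand setting not given in the sources used here. Libraries were paired-end Smart-seq2 without molecular identifiers, so limits on shares of pools and intervals of pooled counts cover counting error only. All 55450 identifiers were matched to symbols. Of 487 libraries with cells, the 335 labelled as passed were used, 152 failed ones and 17 empty wells being kept apart, and no 2 libraries were identical.

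Counts were summed per animal and population into 43 sums. These were fitted together with edgeR 4.0.16 (TMM, filter on low counts, robust quasi-likelihood F test, animal as a block, R 4.3.3), 33768 genes tested, with Benjamini-Hochberg adjustment over all of them and calls at 0.05. The 2 comparisons between lines were fitted without the block. The labels name the mouse of each library, so sums of an animal are paired: deviations of P22 and P18 from their group means correlated at 0.174 to 0.655 within animals and -0.417 to 0.157 between different animals. A member with 0 counts in 1 group is given as a bound against 3 counts over that group, and one with 1 to 3 counts as a ratio of pooled counts with its 95% interval. The fit was run on simulated counts, drawn for genes above a minimum mean count and with no effect of animal. Sparse members were not covered by it.

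All members are accounted for, with values by animal for a named set of 23 and for the 2 largest and 2 smallest folds of each phase in P17 against P18. The members and lists were chosen with earlier results of these data known. Alternatives were DESeq2 1.42.0, RLE factors, no filter, other sets of libraries, each animal left out in turn, no block, other pool minimums, and lane 2 alone. Summaries and plots used python 3.11.15, pandas 2.3.3 and matplotlib 3.10.9.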

Additional observations from a re-analysis of the deposited data

Results flagged for a closer look

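Of 49 groups and measures of 4 to 10 animals examined, 11 held an animal far from the others of its group by Dixon's outlier rule. The rule marks about 1 in 20 by chance only among independent, normally distributed values. These measures share animals and members, so the count of 11 cannot be set against that rate. In Tnc P05, TENA2560 had an S-phase sum of 268.7 CPM, a mitotic sum of 741.3 CPM and a ratio of the mitotic to the S-phase sum of 2.76. Its pool 2 held 23 of 27 mitotic members. In the same population, TENA2483 had 10.08 CPM of Mki67, of which 1 pool with 96.1 CPM gave most, and TENA2524 had 39.99 CPM of Pcna. In Tnc P22, TENA2462 had an S-phase sum of 246.9 CPM. In Tnc P10, TENA2483 had a ratio of the mitotic to the S-phase sum of 3.03 and 42.57 CPM of Top2a. In Tnc P16, TENA2462 had 5.75 CPM of Top2a, and in Tnc P18, TENA2524 had 3.19 CPM of Mki67. In Cdh2 P18, Cdh1624 had 41.84 CPM of Top2a in a sum of 2 libraries.

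Outside the passed libraries, 1 of 152 failed libraries was a mitotic pool and 2 were S-phase pools, against 0 of 17 empty wells. The first, pool 1 of P16 of TENA2560, held 11 S-phase and 20 mitotic members at 10 CPM with Mki67 at 74.7 CPM. The second S-phase pool was pool 1 of P17 of TENA2517, with 19 S-phase and 7 mitotic members and Rrm2 at 415.1 CPM.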

How the results depend on the processing

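Depth, few animals and sums of 1 to 3 libraries limit these results, and 47 of 49 members were under 10 CPM in most pools. Where a value changed, the cause was not tested. DESeq2 called 10 members in P17, 1 in P22, 3 in P09, 2 in P16, 2 in P10, 12 in P15 and 6 in P05 of the Tnc line against P18. Ttk, at 0 CPM in every animal of Tnc P18, was among those called in each of these comparisons. DESeq2 called 4 in P17 against P22, 6 in P15 against P05, 4 in Cdh2 P15 against P18 and 14 in the difference between lines. Of all 33768 genes it called, in the same order, 1773, 836, 1252, 1189, 1680, 4880, 4564, 2892, 5651, 1893 and 3338. These counts take both directions together. edgeR called 0 members in every setting except Tnc P15 with failed libraries (1, Mki67) and with only the 2 groups compared (1, Ccnf). With only the 2 groups compared, in animals with both, the mitotic median was -0.47 in P16, -0.20 in P10, -0.43 in P05 and 2.80 in P15 against P05, where that of all genes was -0.67, -0.76, -0.71 and -0.73 and so lower in each. The S-phase median was -1.23 in P10 and -0.86 in P05, below that of all genes. Without libraries with Ptprc, P10 had medians of -0.96 (S-phase) and -0.011 (mitotic) against -0.48 for all genes, and Tnc P15 had no library left. For Cdh2 P15 against P18 the mitotic median was -2.55 with failed libraries (-1.10 for all genes), -3.62 with sums of at least 3 libraries (-0.20 for all genes) and 0.20 with no replicate block. Without the block 0 members were called too, so calls cannot show its effect, and 3 and not 7 members were higher in P09 at an unadjusted p under 0.05. The difference between lines had a mitotic median of -7.90 with sums of at least 3 libraries (-0.18 for all genes). On lane 2 alone, where the only Tnc P15 library is that of TENA2524 with 508631 counts, Cdh2 P15 against Tnc P15 had medians of 11.41 (S-phase) and 9.87 (mitotic) against 9.24 for all genes, and Nusap1 turned to 5.58, below all genes.

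The share of mitotic pools was 9.09% in P17 and 8.33% in P09 both at 20 CPM and when 18 of the 27 mitotic members were asked for. With failed libraries it was 8.33% in P17 and 2.17% in P16. At 5 CPM it was 22.9% in P09, 7.69% in P16 and 4.0% in P10. With 1 animal left out at a time, mitotic medians ranged over 1.84 to 4.16 in P17, -0.038 to 0.75 in P22, -0.16 to 1.36 in P16, 0.37 to 2.08 in P05, 0.86 to 3.41 in P17 against P22, -3.79 to -0.0085 in Cdh2 P15 and -7.48 to -2.29 in the difference between lines. S-phase medians ranged over -0.15 to 0.54 in P22, 0.77 to 2.46 in Tnc P15, 0.80 to 2.27 in P15 against P05 and -1.31 to 0.062 in P10, and the fold of Bub1 in P17 over -0.30 to 11.35. Of the other folds of single members, 620 values kept their direction and their side of the threshold and 36 passed it under an alternative, 34 of them under DESeq2.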
